A study of Rattus norvegicus with 8 samples.

Results

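The genes described belong to the signalling between receptors such as P2Y2 and the calcium store of the cell: the G protein alpha subunits Gnaq and Gna11, the phospholipase C enzymes Plcb1, Plcb3, Plcb4, Plcd1 and Plcg1, and the inositol trisphosphate receptors Itpr1, Itpr2 and Itpr3. They are 10 of the 10411 genes that the array annotation names, and every probe set it assigns to them was taken, 12 of the 15866 other than controls. Transcripts were measured in primary cultures of semicircular canal duct (SCCD) epithelium from neonatal Wistar rats, an epithelium that absorbs sodium from the fluid of the vestibular labyrinth. The cultures had been treated with 100 nM dexamethasone, a synthetic glucocorticoid (n = 4), or left untreated (control, n = 4), with 1 Affymetrix array per sample. No transgene or mutation was involved, and the time of exposure for the arrays is not given in the sources used here. Whether the samples came from separate dissections is not stated, so p-values measure only the spread between these samples, which may be technical.

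In most cells, a receptor coupled to Gq switches the alpha subunit to its GTP-bound form, and this activates the beta class of phospholipase C. The enzyme splits the membrane lipid PIP2 into diacylglycerol, which recruits protein kinase C, and inositol trisphosphate (IP3), which opens IP3 receptors in the endoplasmic reticulum and releases calcium. For SCCD epithelium, the paper proposes that basolateral ATP and UTP act on ion transport through P2Y2 receptors. Whether the steps of this route carry that action was not tested here.

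Values are signals in arbitrary units after each array was rescaled to a trimmed mean of 500. Since detection calls were not in the table, each array was given a silent level, which 95% of 62 probe sets for 53 genes of other tissues did not exceed. This level was 123 to 207 on the dexamethasone arrays and 99.1 to 182 on the control arrays. The treatment was visible in Sgk1, a kinase induced by glucocorticoids, at 2789 to 3736 with dexamethasone and 272 to 419 in control (log2 fold change 3.19, limma adjusted p = 1.09e-06). As deposited, replicates 1 and 2 of both groups stood at the target of the scaling and replicates 3 and 4 below it, so these are called the 2 array sets. Of the signs of RNA quality, the ratio of the 3' to the 5' control probe set of beta-actin ran between 6.17 and 8.07 with dexamethasone and between 8.10 and 13.7 in control, highest on control replicate 3. These ranges do not overlap, so a fit with this ratio as a covariate cannot tell it apart from treatment. The same ratio for GAPDH did overlap, at 2.14 to 3.18 with dexamethasone and 2.10 to 3.79 in control, again highest on control replicate 3. All 11 epithelial markers measured were above the silent level on 8 of 8 arrays, and 1 of them was lower with dexamethasone and 0 higher (limma adjusted p under 0.05). Of 10 fibroblast markers, 5 were above it on all 8 arrays and 3 (Dcn, Lum and Pdgfrb) on none. Of 4 endothelial markers, 1 was higher with dexamethasone and 1 lower. Kdr, a receptor for VEGF, had 2528 to 3028 with dexamethasone and 492 to 844 in control (log2 fold change 2.00). A probe set of Flt1, another VEGF receptor, had 19.3 to 85.8 with dexamethasone and 168 to 197 in control (-1.96, limma adjusted p = 0.0200). All its dexamethasone signals were under the silent level (mean 53.6), and it was tested only because of its control arrays (mean 182). Another Flt1 probe set overlapped between the groups (-0.52, limma adjusted p = 0.427), and a further one was under the silent level on every array. Pecam1 and Vwf were above the silent level on no array. The 4 markers summed to 2656 to 3174 with dexamethasone and 832 to 1104 in control, but Kdr made up most of the sum on every array, so the sum does not describe the 4 as a set.

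None of the genes of the Gq, phospholipase C and IP3 receptor chain passed the test between dexamethasone and control. Of the 12 probe sets, 10 from 9 genes had a mean signal of at least 100 and were tested, and 0 of these 10 had an adjusted p under 0.05 (limma), against 2.69% of all 10368 probe sets tested, 1.88% higher and 0.810% lower. The 2 with an unadjusted p under 0.05 were those of Plcb4 and Itpr1, both higher with dexamethasone, against 16.1% of all probe sets tested in either direction and 7.96% in that one. Of the 10, 7 had a log2 fold change above 0 and 3 below it. The median over the 10 probe sets was 0.11, and the median over all probe sets tested was -0.023. With the strongest probe set of each gene, the median over the 9 genes was 0.22. The median size without regard to sign was 0.16 for the 10 probe sets and 0.16 for all probe sets tested. By the median of the 16 ratios between a dexamethasone and a control array, Plcb4 alone reached 1.3-fold higher and 0 of the 10 reached 1.3-fold lower, against 7.35% and 7.06% of all probe sets tested. Of the 12 probe sets, 6 were above the silent level on 8 of 8 arrays and 2 on none, against 47.0% and 35.1% of all 15866. In samples of whole cultures, fewer cells of a type and less RNA per cell cannot be told apart.

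**Figure D1:**
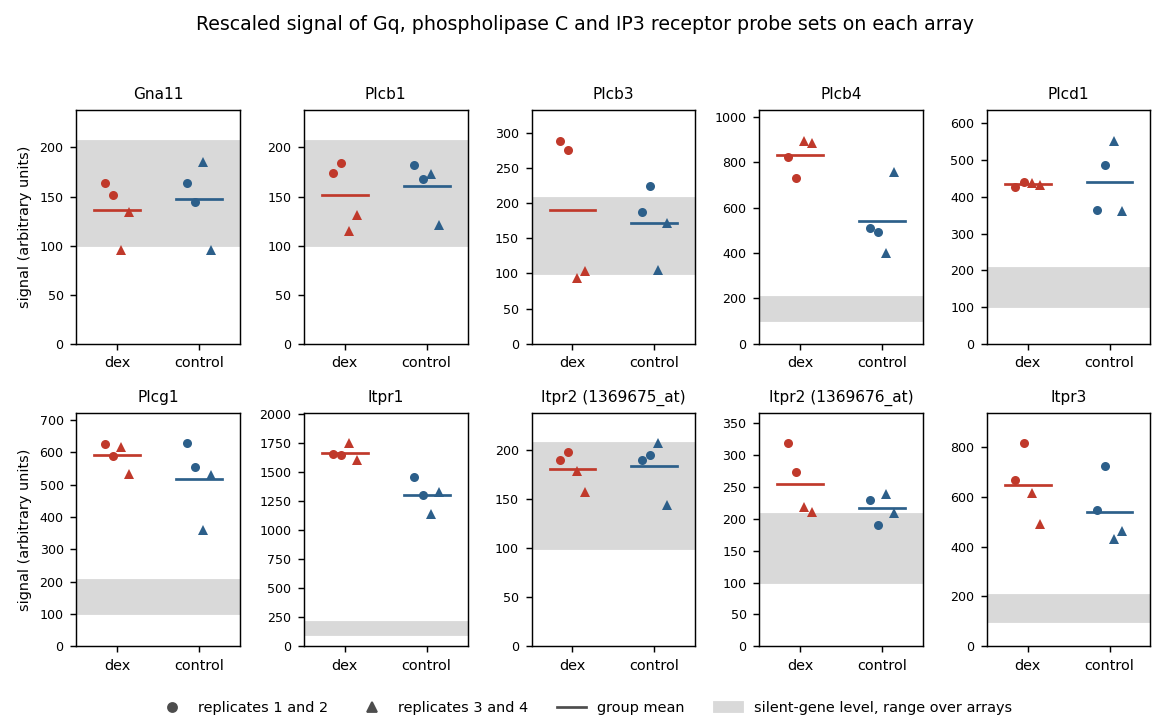
Rescaled signal (arbitrary units, vertical axes from 0) of the 10 tested probe sets on each array, dexamethasone (red, left) and control (blue, right), with circles for replicates 1 and 2, triangles for replicates 3 and 4 and lines for the group means. The grey band spans the silent level over the 8 arrays, 99.1 to 207, and Itpr1 is the panel in which all 4 dexamethasone arrays lie above all 4 control arrays.

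The transcripts of the alpha subunits gave low signals on these arrays. Gnaq encodes the alpha subunit for which the Gq class is named. Its probe set had signals of 11.4, 17.6, 17.1 and 42.2 on dexamethasone replicates 1 to 4, against 21.1, 20.7, 14.9 and 14.7 on control replicates 1 to 4. All 8 signals lay under the silent level, so no fold was computed, and dexamethasone replicate 4 was the highest of them. Gna11 encodes the close relative that also activates phospholipase C beta. It had signals of 164, 151, 95.7 and 134 with dexamethasone and 164, 144, 186 and 95.8 in control. These overlapped over nearly their whole range, and 1 array of each group was above the silent level. The log2 fold change of Gna11 was -0.10 (95% interval -0.65 to 0.45, SE 0.25, limma adjusted p = 0.892).

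Plcb4, a beta-class enzyme that Gq alpha subunits activate, had the largest difference of the chain. Its stronger probe set had signals of 824, 731, 895 and 883 with dexamethasone and 508, 491, 400.1 and 757 in control, all above the silent level. Control replicate 4 alone reached the range of the dexamethasone arrays, and the other 3 controls lay below every one of them. The mean was 833 ± 74.6 with dexamethasone and 539 ± 153 in control (SD, n = 4 each), a log2 fold change of 0.66 (95% interval 0.28 to 1.05, SE 0.18). It missed the threshold, with a limma adjusted p = 0.0724, and an exact permutation test of the 4 against 4 arrays gave a two-sided p = 0.0571, where 0.0286 is the smallest possible. The adjusted p was 0.0456 in a model blocked on array set, in which 5.57% of all probe sets passed (limma). It was 0.0328 in replicates 1 and 2 alone, where 440 of all 10368 passed (limma). Without control replicate 4, the control that reached the dexamethasone range, it was 0.00929 (limma). Leaving out any other array gave 0.105 to 0.169 and no filter gave 0.205, none past the threshold (limma). The log2 fold change was 0.64 within replicates 1 and 2 and 0.69 within replicates 3 and 4, and in replicates 3 and 4 the adjusted p was 0.447 (limma). Adjusted for the beta-actin ratio of each array (log2, a covariate), the log2 fold change was 0.50 (limma adjusted p = 0.572). As the ratio did not overlap between the groups, this fit cannot tell the ratio and treatment apart. The other Plcb4 probe set stayed at 1.09 to 6.80 with dexamethasone and 2.23 to 22.4 in control, under the silent level on every array. Only the stronger probe set therefore gave a reading of Plcb4.

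Itpr1, the IP3 receptor of type 1, was the only tested member whose groups did not overlap. Its signals were 1656, 1644, 1748 and 1608 with dexamethasone and 1454, 1304, 1138 and 1329 in control. The lowest dexamethasone array was above the highest control array, which held for 1 of the 10 probe sets, while 11.0% of all probe sets tested had groups without overlap, 5.57% with dexamethasone above control and 5.46% below it. The mean was 1664 ± 59.5 with dexamethasone and 1306 ± 130 in control (SD, n = 4 each), and the log2 fold change was 0.35 (95% interval 0.13 to 0.58, SE 0.10). This also missed the threshold across all probe sets (limma adjusted p = 0.100), while the exact permutation test gave a two-sided p = 0.0286. The value was 0.26 within replicates 1 and 2 and 0.45 within replicates 3 and 4. Blocked on array set, the adjusted p was 0.0546 (limma), and with the beta-actin ratio as a covariate the log2 fold change was 0.25 (limma adjusted p = 0.613). The lowest Itpr1 signal was on control replicate 3, the array with the highest beta-actin ratio, and without it the log2 fold change was 0.29.

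The promoters of Plcb4 and Itpr1 are shown because these genes had the smallest p-values of the chain under a steroid whose receptor binds DNA. RefSeq (GRCr8) gave promoter windows, 250 bases before to 50 after a transcript start, for all 10 genes. That start need not be the most upstream. The Plcb4 window lies inside the annotated gene, which begins at base 143405721, and those of Itpr2 and Itpr3 also lie inside their genes. They were searched for AGAACA on both strands (TGTTCT in reverse), the hexamer found in each arm of the classical glucocorticoid response element. The capitals mark it.
Plcb4, chr3:143405723-143406022, plus strand: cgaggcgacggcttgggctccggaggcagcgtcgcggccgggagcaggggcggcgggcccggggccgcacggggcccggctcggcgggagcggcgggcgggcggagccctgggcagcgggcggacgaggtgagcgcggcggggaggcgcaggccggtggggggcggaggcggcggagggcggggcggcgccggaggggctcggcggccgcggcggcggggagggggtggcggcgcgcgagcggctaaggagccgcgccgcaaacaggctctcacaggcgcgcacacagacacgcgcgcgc
Itpr1, chr4:142743190-142743489, plus strand: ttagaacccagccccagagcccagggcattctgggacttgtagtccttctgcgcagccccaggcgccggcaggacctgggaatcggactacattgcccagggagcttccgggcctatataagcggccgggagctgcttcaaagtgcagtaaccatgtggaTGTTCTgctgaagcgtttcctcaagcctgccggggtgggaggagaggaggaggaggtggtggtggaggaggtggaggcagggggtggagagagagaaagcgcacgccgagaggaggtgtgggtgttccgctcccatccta
The Itpr1 window held the hexamer 1 time, at bases 161 to 166, and the windows of the other 9 genes did not hold it. Of all 33469 rat promoter windows of this length, 20.7% held it. The 8 windows of Sgk1, Fkbp5, Tsc22d3 and Per1, genes known to respond to glucocorticoids, held it 0 times. A match of 6 bases is a description of the sequence and not a binding site.

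The remaining IP3 receptors differed less between the groups than between arrays of a group. Itpr3, the IP3 receptor of type 3, is found in many secretory epithelia. It had signals of 667, 813, 615 and 489 with dexamethasone and 544, 723, 432 and 460.5 in control, all above the silent level. The groups overlapped, and within each of them replicates 1 and 2 were higher than replicates 3 and 4. The log2 fold change of Itpr3 was 0.26 (95% interval -0.15 to 0.68, SE 0.19, limma adjusted p = 0.543). Replicates 1 and 2 alone gave 0.23 and replicates 3 and 4 alone 0.30. Itpr2, the IP3 receptor of type 2, was read by 2 probe sets. The stronger had signals of 318, 273, 218 and 210.2 with dexamethasone and 230, 191, 239 and 209 in control, above the silent level on 8 of 8 arrays. Dexamethasone replicates 1 and 2 were above all controls, and dexamethasone replicates 3 and 4 were within the control range. Its log2 fold change was 0.22 (SE 0.17, limma adjusted p = 0.586), 0.49 in replicates 1 and 2 and -0.062 in replicates 3 and 4. The weaker Itpr2 probe set had signals of 157 to 198 with dexamethasone and 144 to 207 in control, above the silent level on 7 of 8 arrays, and a log2 fold change of -0.015 (95% confidence interval -0.39 to 0.36, limma adjusted p = 0.980).

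**Figure D2:**
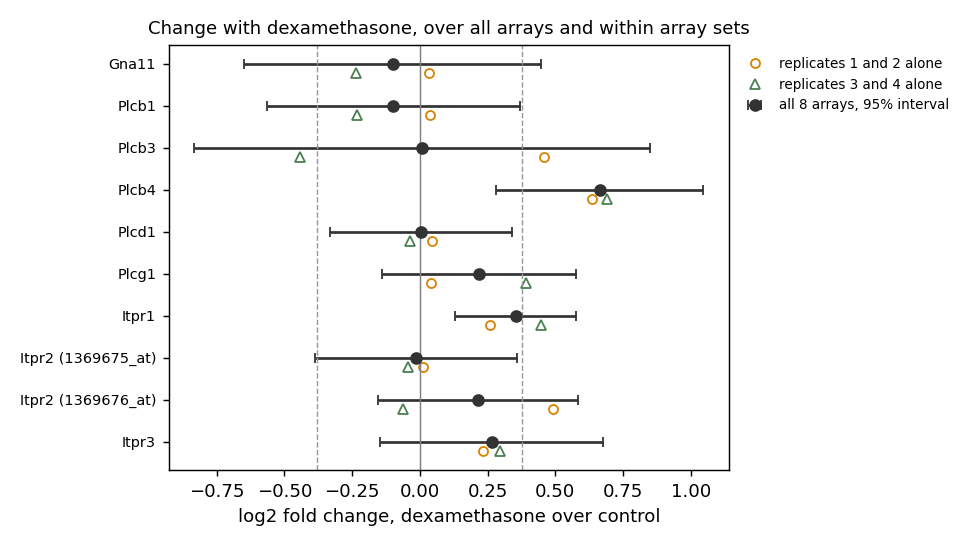
Log2 fold change, dexamethasone over control, of the 10 tested probe sets (horizontal axis), with the 95% confidence interval from limma over all 8 arrays (black), and the value within replicates 1 and 2 (open circles) and within replicates 3 and 4 (open triangles). The dashed lines mark a 1.3-fold change, 0.38 on the log2 scale. Plcb4 and Itpr1 have intervals above 0, and the open symbols of Plcb3 lie farthest apart, at 0.46 and -0.44.

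The other phospholipase C enzymes showed no shift of the group means beyond their error. Plcb3, a beta-class enzyme common outside the nervous system, had signals of 289, 276, 93.8 and 104 with dexamethasone and 187, 225, 104 and 172 in control. Of these, 2 dexamethasone and 3 control arrays were above the silent level, and dexamethasone replicates 3 and 4 and control replicate 3 were not. In replicates 1 and 2 both dexamethasone arrays were above both controls (log2 fold change 0.46, limma adjusted p = 0.245), and in replicates 3 and 4, where 3 of the 4 signals were not above the silent level, the log2 fold change was -0.44 (limma adjusted p = 0.608). Over all arrays the log2 fold change was 0.0078 (95% interval -0.83 to 0.85, SE 0.38, limma adjusted p = 0.994), the widest interval of the chain. The interaction of treatment with array set was -0.90 for Plcb3, with an unadjusted p = 0.0394 and a limma adjusted p = 0.787. Over all probe sets, 5.66% had an unadjusted p under 0.05 for this interaction and 0 an adjusted p under 0.05 (limma). Plcb3 was also the 1 probe set of the 10 that differed between the array sets, being lower by 1.07 on the log2 scale in replicates 3 and 4 than in replicates 1 and 2 after the rescaling (log2 difference -1.07, SE 0.23, limma adjusted p = 0.0348), against 3.49% of all probe sets tested.

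Plcb1, the enzyme of the same class best known from the brain, had signals of 174, 184, 115 and 131 with dexamethasone and 182, 168, 173 and 121 in control. Of these, 1 dexamethasone array and 3 control arrays were above the silent level. Its log2 fold change was -0.098 (95% interval -0.57 to 0.37, SE 0.21, limma adjusted p = 0.870). Plcd1, a delta-class enzyme that responds to calcium rather than to Gq, had signals of 427, 441, 436 and 433 with dexamethasone and 363, 487, 553 and 360.1 in control. The dexamethasone arrays lay within a span that the control arrays enclosed on both sides, with a coefficient of variation of 1.41% with dexamethasone and 21.6% in control. The log2 fold change of Plcd1 was 0.0042 (95% interval -0.33 to 0.34, SE 0.15, limma adjusted p = 0.992), and this was the 1 interval of the 10 that stayed within a 1.3-fold change in both directions. Plcg1, the gamma-class enzyme that receptor tyrosine kinases phosphorylate, had signals of 625, 589, 616 and 533 with dexamethasone and 628, 554, 359.9 and 529 in control. Control replicate 3 stood below the others, and the log2 fold change was 0.22 (95% interval -0.14 to 0.58, SE 0.16, limma adjusted p = 0.570) with it and 0.052 without it.

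The spread between arrays of 1 group varied among these genes. The pooled SD of the log2 signals ran between 0.11 for Itpr1 and 0.71 for Plcb3, with a median of 0.27 over the 10 probe sets and 0.23 over all probe sets tested. The coefficient of variation was smaller with dexamethasone than in control in 7 of the 10, and in 56.3% of all probe sets tested. Control replicate 3 was the lowest control for 5 of the 10 and the highest for 4, and it was at either end of the controls for 63.0% of all probe sets tested. After rescaling, 8 of the 10 were lower in replicates 3 and 4 than in replicates 1 and 2 once treatment was taken into account. The share over all probe sets tested was not taken, so this count cannot be read as a trait of these genes.

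Shifts of related members against each other left the groups overlapping in every pair taken. The log2 difference between 2 members on the same array, which does not depend on the scaling of that array, was taken for 7 pairs, and 0 of the 7 had groups without overlap. The largest shift was that of Plcb1 over Plcb4, with a mean log2 difference of -2.48 ± 0.45 with dexamethasone and -1.72 ± 0.63 in control (SD, n = 4 each). It shifted by -0.76 (exact permutation test, two-sided, unadjusted p = 0.0857). Without control replicate 4, 1 of the 7 pairs had groups without overlap. Itpr1 over Itpr3 shifted by 0.089 (exact permutation test, two-sided, unadjusted p = 0.657) and Itpr1 over Itpr2 by 0.14 (exact permutation test, two-sided, unadjusted p = 0.514). These are differences in change, and levels of different probe sets were not compared.

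The genes around the chain were described through 11 lists, of which 109 genes were tested. Of the 109, each read by its strongest probe set, 4 were higher and 2 lower with dexamethasone. This is 5.50%, against 2.69% of all probe sets tested. The latter also include weaker probe sets of a gene and unnamed ones, so the shares are not like for like. The lists were also chosen with earlier results of these data known, so the higher share cannot be read as a trait of these genes. The median log2 fold change of the 109 genes was -0.037, against -0.023 for all probe sets tested. The genes that passed were S1pr3 and Adra1b among receptors, Rgs2 among regulators of the alpha subunit, Mgll downstream of diacylglycerol, and Ppp3r1 and Mylk among calcium effectors. S1pr3 entered the test only through its dexamethasone arrays, with a mean signal of 164 there and 36.5 in control, so its place in these counts rests on the filter.

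Rgs2, which binds the alpha subunit of Gq and speeds the hydrolysis of its GTP, fell with dexamethasone. Its signals were 405, 427, 371 and 391 with dexamethasone and 1204, 1346, 2053 and 770 in control, without overlap. The log2 fold change was -1.67 (SE 0.23, limma adjusted p = 0.00212), and with the beta-actin ratio as a covariate it was -1.33 (limma adjusted p = 0.0953). It was the 1 gene past the test of 5 tested in the list of chaperones, kinases and arrestins of Gq. Grouping by array set gave -1.61 in replicates 1 and 2 (limma adjusted p = 0.000190) and -1.72 in replicates 3 and 4 (limma adjusted p = 0.237). The adjusted p was 0.0576 with no filter and 0.0688 on the signals as deposited, neither past the threshold (limma). Leaving out any 1 array kept the call, with an adjusted p of 0.000183 to 0.0104 (limma).

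Of 13 Gq-coupled receptors tested, 2 were higher with dexamethasone, S1pr3 among them, and 0 lower. S1pr3, a receptor for sphingosine 1-phosphate, had signals of 222, 162, 159 and 114 with dexamethasone and 51.8, 39.3, 4.46 and 50.3 in control, without overlap. All control signals and dexamethasone replicate 4 were under the silent level. The log2 fold change of S1pr3 was 2.16 (SE 0.39, limma adjusted p = 0.0112), but the adjusted p was 0.0860 with no filter, and the log2 fold change was 0.68 (adjusted p = 0.0889) with signals under 100 set to 100, and 0.19 with every signal raised to the silent level of its array. Adra1b, the alpha 1B adrenergic receptor, had signals of 202, 186, 232 and 229.8 with dexamethasone and 144, 132, 118 and 113 in control. These did not overlap, and 3 dexamethasone arrays and 1 control array were above the silent level. Its log2 fold change was 0.75 (SE 0.17, limma adjusted p = 0.0364), and leaving out any 1 of the arrays other than control replicate 1 ended the call (adjusted p of 0.0593 to 0.115 from limma).

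Ppp3r1 and Mylk rose among 15 calcium effectors tested, and 0 of the 15 fell. Ppp3r1, the regulatory subunit of the calcium-dependent phosphatase calcineurin, had signals of 1694, 1713, 1634 and 1632 with dexamethasone and 1056, 1008, 848 and 919.6 in control. The groups were far apart, with a log2 fold change of 0.81 (SE 0.10, limma adjusted p = 0.00128). With the beta-actin ratio as a covariate it was the 1 list gene that passed (0.67, limma adjusted p = 0.0464). Since the ratio and treatment cannot be told apart on these arrays, this does not show a change free of RNA quality. Mylk, the myosin light chain kinase that calmodulin activates, had signals of 475, 591, 555 and 642 with dexamethasone and 264, 242, 274 and 350.1 in control, again without overlap. Its log2 fold change was 1.01 (SE 0.15, limma adjusted p = 0.00339). With the covariate it was 0.98 (limma adjusted p = 0.0843).

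Mgll fell among 8 genes of diacylglycerol handling tested, and 0 rose. It encodes the lipase that breaks down monoacylglycerols, including the one made from diacylglycerol. The signals of Mgll were 578, 460.1, 479 and 564 with dexamethasone and 999.5, 779.9, 910.3 and 790.5 in control. The groups did not overlap, and the log2 fold change was -0.74 (SE 0.13, limma adjusted p = 0.00931). With the beta-actin covariate it was -0.72 (limma adjusted p = 0.159).

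**Figure D3:**
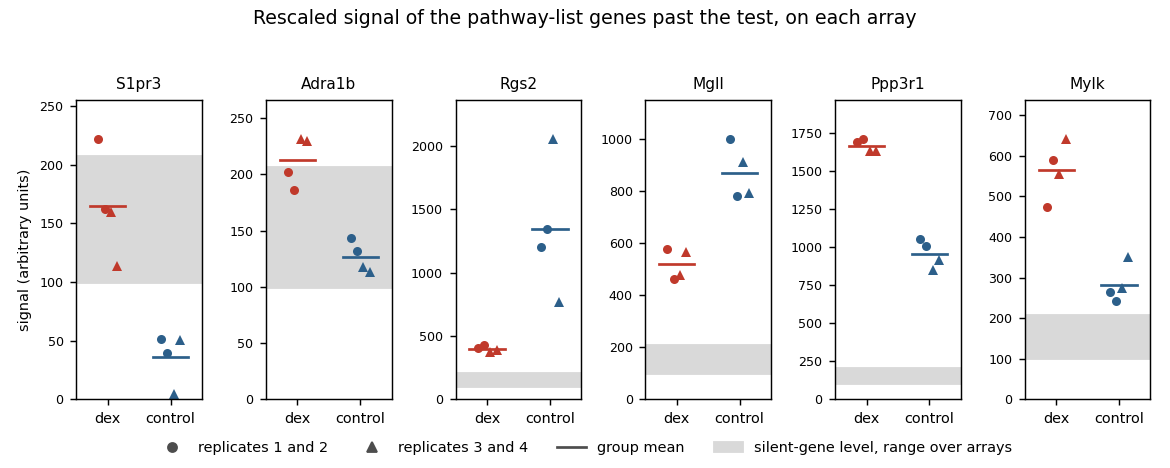
Rescaled signal (arbitrary units, vertical axes from 0) on each array of the 6 genes of the pathway lists that passed the test, dexamethasone (red, left) and control (blue, right), with the marks and the grey band as in the plot of the chain's own probe sets. Rgs2 and Mgll are lower and the other 4 higher with dexamethasone, and the 4 control signals of S1pr3 lie under the band.

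No gene passed the test in the other 7 lists, and the gene with the smallest unadjusted p is given for each. Among 7 other alpha subunits, it was Gna15, a further activator of phospholipase C beta, with a log2 fold change of -0.49 (limma adjusted p = 0.233). Gnb5 (-0.41, adjusted p = 0.259) came first of 8 beta and gamma subunits. Among 3 further phospholipase C enzymes it was Plce1, an enzyme that Ras proteins control (0.36, adjusted p = 0.355). Of 12 genes for the supply of PIP2 it was the lipid kinase Pi4kb, with signals of 509 to 647 with dexamethasone and 725 to 873 in control (-0.38, adjusted p = 0.134). Ip6k2, an inositol phosphate kinase, led 15 kinases and phosphatases of inositol phosphates, with 754 to 805 with dexamethasone and 446 to 669.6 in control (0.48, adjusted p = 0.104). Homer1, a scaffold that binds IP3 receptors, led 11 receptor partners (-0.46, adjusted p = 0.178), and Casq1, a calcium-binding protein of the store, led 12 genes of calcium stores and store-operated entry (-0.36, adjusted p = 0.291). The groups of Pi4kb, Ip6k2 and Homer1 did not overlap, yet none of the 3 passed the test (limma). Of all probe sets tested, 11.0% had groups without overlap. As each of these genes was picked for the smallest p of its list, the lack of overlap cannot be read as a trait of the lists.

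Over the 8 arrays, the signals most like those of Plcb4 were those of Dnajc13, Spats2l, Tor1aip2, Spop and Cast. Their Pearson correlations with the log2 signal of Plcb4 were 0.991, 0.985, 0.980, 0.977 and 0.967. All points come from the same 8 arrays and share their treatment, scaling and RNA quality, so these are descriptions. None of the 5 genes passed the test with dexamethasone, with log2 fold changes of 0.33 to 0.50 (adjusted p of 0.115 to 0.188 from limma).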

How the data were processed

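The RNA of 8 samples, amplified in 2 rounds, was hybridized to the rat 230A array, which holds 15923 probe sets, 57 of them controls. The authors made the deposited signal intensities with the Affymetrix statistical algorithms, on a linear scale. Per the labels the target of the scaling was 500, yet the deposited arrays had trimmed means of 202 to 500.1, so each array was multiplied to a mean of 500 with 2% trimmed at each end. Signals under 16 were set to 16, log2 was taken, and probe sets with a mean of at least 100 were tested in R 4.3.3 by limma 3.58.1 (a trended empirical Bayes fit, two-sided, with Benjamini-Hochberg adjustment). Arrays carry no depth, and their number limits the precision. The fit was tested on simulated data.

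The array annotation gives 1 gene symbol to 12783 probe sets, several to 312 and none to 2771. Symbols were brought up to date by gene ID. The deposited table gives no coordinates, and those printed are of the RefSeq promoter windows.

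The members and lists were chosen with earlier results of these data known. Named genes are all members, the list genes past the test or otherwise the one with the smallest p of each list, and the 5 genes most like the member with the smallest p. The interaction and the difference between array sets were added after the data were seen. Alternatives covered scaling, filter, floor, variance model, blocks, a beta-actin covariate, single array sets, each array left out, the median of ratios, other silent levels and the mean of a gene's probe sets.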

Additional observations from a re-analysis of the deposited data

Results flagged for a closer look

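Plcb3 was singled out because dexamethasone and control arrays did not overlap within either array set, with opposite signs of the difference. The share of all probe sets with such a pattern was not taken, so it cannot be read as a trait of Plcb3. Its signals were 276 and 289 with dexamethasone against 187 and 225 in control in replicates 1 and 2. In replicates 3 and 4 they were 93.8 and 103.7 with dexamethasone against 104.5 and 172 in control, so 103.7 and 104.5 barely differ. In replicates 3 and 4, both dexamethasone signals and that of control replicate 3 were not above the silent level, so no direction can be read there. The difference between the 2 effects was -0.90 on the log2 scale (unadjusted p = 0.0394, adjusted p = 0.787 from limma), so it did not pass the test across all probe sets. In 20 groups of 4 arrays checked, 0 held an array far from the other 3.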

How the results depend on the processing

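The count of the chain's probe sets past the test was 0 as reported and 1, Plcb4, with the replicate block (adjusted p = 0.0415), the array set as a block and replicates 1 and 2 only, and 0 to 1 when each array was left out, the 1 without control replicate 4. Whether same-numbered samples were paired is not stated. The correlation of same-numbered deviations was 0.035 to 0.41, and that of differently numbered ones -0.41 to 0.43, which does not settle it. In each of the other alternatives 0 passed. All probe sets past the test numbered 279, against 38 on the signals as deposited (34 higher, 4 lower; 195 and 84 after rescaling), 102 with no filter, 484 with the replicate block, 578 with the array set as a block, 440 and 21 in replicates 1 and 2 and in replicates 3 and 4 only, 65 with the beta-actin covariate, and 180 to 275 when each array was left out (180 without dexamethasone replicate 2, 184 without dexamethasone replicate 1). The 6 list genes became 0 as deposited, 3 with no filter, 0 in replicates 3 and 4 only and 1 with the beta-actin covariate. That covariate did not overlap between the groups, so calls lost with it cannot be assigned to RNA quality or to treatment. Of the 7 pairs, 0 to 1 had groups without overlap when each array was left out. The replicate block changed no other call of the chain.

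Members near 0 changed sign. Signals as deposited gave 0.063 for Gna11, 0.065 for Plcb1 and 0.15 for the weaker Itpr2 probe set, but the median of all probe sets was then 0.14, and relative to it these were -0.077, -0.075 and 0.0082. Replicates 1 and 2 only gave 0.035 for Gna11, 0.037 for Plcb1 and 0.013 for that Itpr2 probe set. Replicates 3 and 4 only gave -0.44 for Plcb3, -0.038 for Plcd1 and -0.062 for the stronger Itpr2 probe set. The beta-actin covariate gave -0.45 for Plcb3, -0.075 for Plcg1 and 0.088 for the weaker Itpr2 probe set. Leaving out each array gave -0.29 to 0.060 for Gna11, -0.23 to 0.024 for Plcb1, -0.26 to 0.28 for Plcb3, -0.085 to 0.12 for Plcd1 and -0.13 to 0.051 for the weaker Itpr2 probe set. Itpr1 (0.29 to 0.41), Itpr3 (0.15 to 0.42) and Plcb4 (0.53 to 0.84) stayed above 0. The cause of these changes was not tested. By the median of the 16 ratios, 1 probe set of the chain, Plcb4, reached 1.3-fold. The number above the silent level on all arrays was 6, and 8 and 5 with the 90th percentile and the maximum of the silent genes.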
